A study of Homo sapiens with 10 samples.

Results

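The genes described here are the 4 Argonautes (AGO1, AGO2, AGO3 and AGO4) and 6 genes of the machinery that makes microRNAs or silences with them (DICER1, DROSHA, DGCR8, XPO5, TNRC6A and TNRC6B). They were taken by symbol from the count tables, where 10 of the 52402 symbols matched, each on 1 row, and all 10 were among the 14884 genes that passed the filter on low counts. The question was whether the silencing machinery of the cell responded to a load of microRNA mimic or inhibitor. BEAS2B, a human bronchial epithelial cell line, was transfected with Lipofectamine 2000 in every group. The groups were wild-type cells given a scrambled miRNA (miRcontrol), miR-3124-5p overexpression by a mimic (miR3124_mimic), miR-200b-3p overexpression by a mimic (miR200b_mimic), miR-92b knockdown by an inhibitor (miR92b_inhibitor), and all of these agents together (the 3-miRNA mixed group, also called the mixture here). Each group had 2 libraries of poly(A)-selected mRNA. The 4 groups other than miRcontrol are called the treated groups. Because miRcontrol also received a small RNA and the lipid, a response common to any transfection cannot be seen in these comparisons, and untransfected cells were not analysed here. The sources used here do not give the amount of each agent in the mixture, nor do they say that the libraries of a group came from separate transfections, so the p-values measure the spread between these libraries, which may be technical.

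MicroRNAs are cut from long transcripts in the nucleus by DROSHA and its partner DGCR8, carried to the cytoplasm by exportin-5 (the product of XPO5) and cut again by DICER1. One strand is then held by an Argonaute protein, which pairs its seed with target mRNAs and recruits a GW182 protein (TNRC6A, TNRC6B or TNRC6C), and this scaffold brings in the enzymes that remove the poly(A) tail and the cap. Synthetic mimics are small duplexes that enter this path after the nuclear steps, and inhibitors are antisense strands that pair with a microRNA already held by an Argonaute.

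The mature microRNAs that the agents copy or oppose are shown first, since their seeds were used to look for matches in the members. The sequences are those of RefSeq on GRCh38.p14, written 5′ to 3′ with bases 2 to 8, the seed, in capitals. The labels do not name the arm that the miR-92b inhibitor opposes, so both are given. The serum marker of the study is miR-92b-5p, and its methods name a miR-92b inhibitor without an arm.
hsa-miR-3124-5p: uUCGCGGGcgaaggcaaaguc
hsa-miR-200b-3p: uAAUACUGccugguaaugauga
hsa-miR-92b-5p: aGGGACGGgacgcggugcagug
hsa-miR-92b-3p: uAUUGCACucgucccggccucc
They lie at chr1:248826383-248826403, chr1:1167160-1167181, chr1:155195196-155195217 and chr1:155195237-155195258, all on the plus strand. No seed is shared among them. The words that pair with the seeds are CCCGCGA for miR-3124-5p, CAGTATT for miR-200b-3p, CCGTCCC for miR-92b-5p and GTGCAAT for miR-92b-3p, and they were looked for on the transcript strand only.

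The libraries held 13587666 to 18503890 counts, and the members had 294 (AGO4) to 5972 (TNRC6A) counts per library. Levels are given as normalized CPM, counts scaled to library size after edgeR's RLE normalization. A gene is called when the Benjamini-Hochberg adjusted p of edgeR's quasi-likelihood test, taken over all 14884 genes, is under 0.05. All comparisons with miRcontrol share its 2 libraries. Keratins 8 and 18 were high in every library (KRT8 at 800 to 1393 and KRT18 at 605 to 1295 CPM of the library total), while EPCAM and CDH1 reached at most 10.1 and 10.7 and KRT5 at most 0.486, and the mesenchymal marker VIM ranged from 811 to 4259. The epithelial label thus rests on the 2 keratins. Markers of leukocytes, endothelium and red cells were at or near 0, apart from CD14 (0.368 to 12.8) and CDH5 (0 to 4.06). ZEB1, a well-known target of the miR-200 family, had 1106 and 1054 counts in miRcontrol, 346 and 445 in miR200b_mimic and 538 and 529 in the 3-miRNA mixed group. VIM was lowest in miR3124_mimic (12112 and 14116 counts, against 68027 and 62109 in miRcontrol) and CDH1 highest in miR200b_mimic (146 and 157 counts, against 3 and 2), and the part of these shifts in the values of the members was not tested. The transfected microRNAs themselves were not analysed here.

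All 10 members were called in miR3124_mimic against miRcontrol, 8 higher and 2 lower, where 51% of all genes tested were called. Of these calls, that of DGCR8 was lost with DESeq2 (adjusted p = 0.1082) and with library totals in edgeR (0.08167), with every library kept. In miR200b_mimic, 7 were called (5 higher, 2 lower), against 40.6% of all genes, in miR92b_inhibitor 7 (3 higher, 4 lower) against 35.7%, and in the 3-miRNA mixed group 7 (6 higher, 1 lower) against 42.7%. Without 1 library, the count fell as low as 4 of 10 in miR200b_mimic (without its library 2, and 5 without either miRcontrol library) and 4 of 10 in miR92b_inhibitor (without its library 2, and 5 without miRcontrol library 2), against the same shares of all genes with every library kept. Many genes of the cell were called in each group, so the counts of members are to be read against these shares. The shares cover all genes that passed the filter and were not matched to the members on count. All members had at least 294 counts in every library, and well-counted genes can be called at smaller folds. Shares among genes of similar count were not worked out, so the counts do not show that the members responded more than such genes. A rise or fall of at least 2-fold with an unadjusted p under 0.05 was seen for 3 members in miR3124_mimic (AGO4, TNRC6A and TNRC6B, with 8.81% of all genes past this limit) and for 1 in miR200b_mimic (DICER1, with 5.7%). None passed it in the other 2 groups, where 2.63% (inhibitor) and 5.42% (mixture) of genes did. By the edgeR adjusted p, 7 of 10 members were still called in each of those groups. Separation from the 2 miRcontrol libraries without overlap is described for single members, and it held for 73.9% of all genes in miR3124_mimic, 67.3% in miR200b_mimic, 69.5% in the mixture and 65.7% in miR92b_inhibitor.

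**Figure D1:**
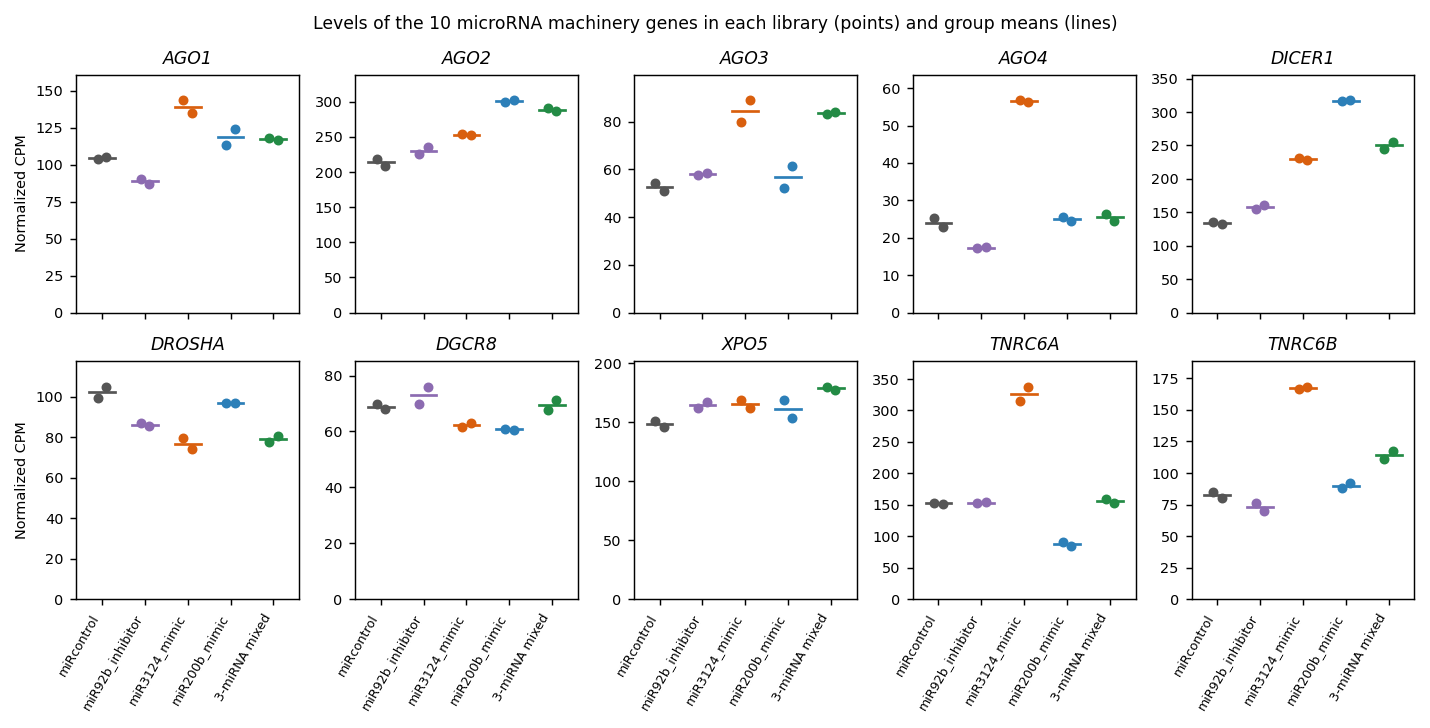
Normalized CPM (vertical axes, starting at 0) of the 10 members in each of the 10 libraries, with points for libraries and lines for group means. DICER1 stood at 229 to 318 in the 6 libraries with a mimic and at 133 to 161 in the 4 without, whereas TNRC6A was highest in miR3124_mimic (315 and 338) and lowest in miR200b_mimic (91.5 and 83.9).

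DICER1, the enzyme that cuts the hairpin precursor to the microRNA duplex, was higher in every treated group than in miRcontrol, and most of all in miR200b_mimic. Its level was 136 and 133 in miRcontrol, 156 and 161 in miR92b_inhibitor, 231 and 229 in miR3124_mimic, 245 and 256 in the mixture and 316 and 318 in miR200b_mimic. No 2 groups overlapped. Against miRcontrol, the log2 fold change was 1.24 ± 0.04 (SE) in miR200b_mimic, a 2.36-fold rise (adjusted p = 5.136e-29). It was 0.90 ± 0.04 in the mixture (1.87-fold, adjusted p = 1.587e-23) and 0.78 ± 0.04 in miR3124_mimic (1.71-fold, adjusted p = 3.522e-21). In miR92b_inhibitor the rise was smaller, at 0.24 ± 0.04 (1.18-fold, adjusted p = 1.037e-05). Of all genes tested, 2.26% had a log2 fold change at least as high as that of DICER1 in miR200b_mimic, 4.9% in the mixture and 9.53% in miR3124_mimic. Over the alternative analyses the value stayed between 1.23 and 1.26, 0.87 and 0.93, and 0.76 and 0.80, in the same order.

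DICER1 lies on the minus strand of chromosome 14 (chr14:95086228-95158010, GRCh38, GENCODE v29). Its 3′UTR of 4270 bases, in the longest coding transcript, held none of the 4 seed words in full. Without its first letter, the word for miR-200b-3p (AGTATT) was there 1 time and that for miR-92b-3p (TGCAAT) 3 times. Of the tested genes with a 3′UTR, 41.2% and 34.1% had at least 1 of these shorter words there. DICER1-AS1, an antisense gene that overlaps it, had 0 to 2 counts per library, a count that itself depends on the strand setting.

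The 2 genes of the nuclear step did not follow DICER1. DROSHA, the nuclear RNase III enzyme, had 99.6 and 105 normalized CPM in miRcontrol, 87.1 and 85.5 in miR92b_inhibitor, 79.8 and 74.0 in miR3124_mimic, 77.7 and 80.6 in the mixture and 97.1 and 97.2 in miR200b_mimic. It was highest in miRcontrol, and the libraries of every treated group lay below both control libraries. The fall was called in miR3124_mimic (log2 fold change -0.41 ± 0.05, adjusted p = 1.857e-09), in the mixture (-0.37 ± 0.05, adjusted p = 2.659e-08) and in miR92b_inhibitor (-0.25 ± 0.05, adjusted p = 8.598e-05). In miR200b_mimic it was -0.07 ± 0.05 and missed the threshold (adjusted p = 0.2458). The mixture and miR3124_mimic overlapped.

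DGCR8, which binds the primary transcript and holds DROSHA in place, moved little. Its level was 69.9 and 67.9 in miRcontrol, 69.8 and 76.0 in miR92b_inhibitor, 61.7 and 62.9 in miR3124_mimic, 67.5 and 71.1 in the mixture and 60.8 and 60.6 in miR200b_mimic. Both single-mimic groups lay below miRcontrol, and the other 2 groups overlapped it. The log2 fold change was -0.18 ± 0.06 in miR200b_mimic (adjusted p = 0.008313) and -0.14 ± 0.06 in miR3124_mimic (adjusted p = 0.02988), and it was 0.08 ± 0.05 (adjusted p = 0.2552) in miR92b_inhibitor and 0.01 ± 0.05 (adjusted p = 0.9201) in the mixture. The call in miR3124_mimic was lost with DESeq2 (adjusted p = 0.1082), with library totals (0.08167), and without miRcontrol library 1 (0.1573) or either miR3124_mimic library (0.1224 and 0.0707), and that in miR200b_mimic without miRcontrol library 1 (0.07512) or miR200b_mimic library 2 (0.05059). DGCR8 overlaps TRMT2A on the opposite strand. TRMT2A had 237 to 393 counts per library and was not called against miRcontrol in any group (log2 fold change -0.06, 0.06, 0.14 and -0.11 in miR3124_mimic, miR200b_mimic, miR92b_inhibitor and the mixture).

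XPO5 encodes exportin-5, which takes the hairpin precursor out of the nucleus. It had 151 and 146 normalized CPM in miRcontrol, 162 and 167 in miR92b_inhibitor, 169 and 162 in miR3124_mimic, 180 and 178 in the mixture and 169 and 153 in miR200b_mimic. Every treated library was above both control libraries, and the 3 single-agent groups overlapped each other. The largest log2 fold change was that of the mixture, 0.27 ± 0.04 (1.21-fold, adjusted p = 1.399e-06). In the single-agent groups it was 0.15 (miR3124_mimic, adjusted p = 0.003376), 0.11 (miR200b_mimic, adjusted p = 0.03704) and 0.15 (miR92b_inhibitor, adjusted p = 0.006505). These 3 calls hung on single libraries. Adjusted p rose to 0.05347 and 0.05995 in miR3124_mimic without miRcontrol library 2 or miR3124_mimic library 1, and to 0.0925 and 0.0813 in miR92b_inhibitor without miRcontrol library 2 or miR92b_inhibitor library 2. In miR200b_mimic the call was lost without miRcontrol library 1, miRcontrol library 2 or miR200b_mimic library 1 (log2 fold change 0.14, 0.092 and 0.048). With every library kept, it was also lost with DESeq2 (adjusted p = 0.08681). The same held in edgeR with library totals (0.05536) and with the fit of only the 2 groups compared (0.06643). XPO5 shares its locus with POLR1C on the opposite strand, which had 423 to 719 counts per library and log2 fold changes of 0.16, 0.31, 0.35 and 0.49 in miR3124_mimic, miR200b_mimic, miR92b_inhibitor and the mixture. The strand setting of the counting is not given in the sources used here, and the part of POLR1C in the XPO5 values was not tested.

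**Figure D2:**
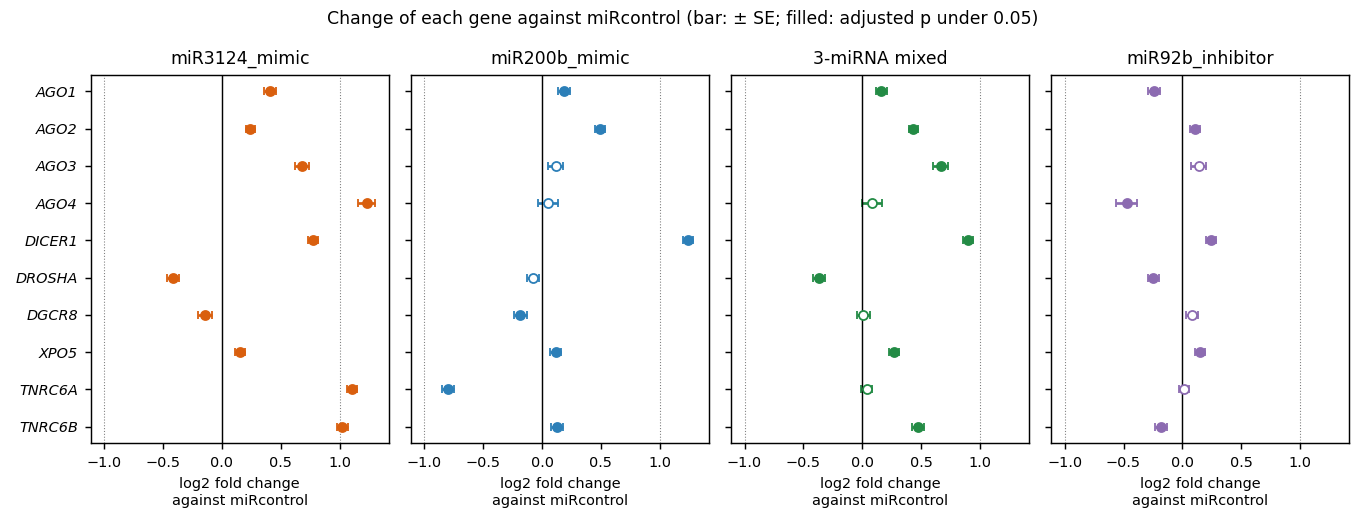
Log2 fold change of each member against miRcontrol (horizontal axes) in the 4 treated groups, with bars for ± SE and filled points for an adjusted p under 0.05. DICER1 is to the right of 0 in every panel, while TNRC6A is at 1.10 in miR3124_mimic, -0.80 in miR200b_mimic and 0.04 in the 3-miRNA mixed group.

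The Argonautes hold the microRNA strand, and AGO2 is the member of the family best known for cutting a fully paired target. AGO2 was higher in all treated groups. It stood at 218 and 209 normalized CPM in miRcontrol, 225 and 236 in miR92b_inhibitor, 254 and 252 in miR3124_mimic, 291 and 287 in the mixture and 299 and 302 in miR200b_mimic. No 2 groups overlapped, and miR200b_mimic and the mixture were the highest. The log2 fold change was 0.49 ± 0.04 in miR200b_mimic (1.41-fold, adjusted p = 7.29e-15), 0.43 ± 0.04 in the mixture (1.35-fold, adjusted p = 3.359e-13) and 0.24 ± 0.04 in miR3124_mimic (1.18-fold, adjusted p = 8.894e-07). In miR92b_inhibitor it was 0.11 ± 0.04 (adjusted p = 0.02716), a call lost without miRcontrol library 2 (adjusted p = 0.2643) or miR92b_inhibitor library 2 (0.2673).

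AGO1 was higher with each mimic and lower with the inhibitor. The values were 104 and 105 in miRcontrol, 90.6 and 86.8 in miR92b_inhibitor, 144 and 135 in miR3124_mimic, 118 and 117 in the mixture and 113 and 124 in miR200b_mimic. The groups did not overlap except miR200b_mimic and the mixture. In miR3124_mimic the log2 fold change was 0.41 ± 0.05 (1.33-fold, adjusted p = 5.023e-10), and in miR92b_inhibitor -0.24 ± 0.05 (adjusted p = 0.0001525). It was 0.16 ± 0.05 in the mixture (adjusted p = 0.004602) and 0.19 ± 0.05 in miR200b_mimic (adjusted p = 0.001558), where the call was lost without miR200b_mimic library 2 (log2 fold change 0.11, adjusted p = 0.1338).

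AGO3 was higher where the miR-3124-5p mimic was present, alone or in the mixture. It had 54.4 and 50.9 normalized CPM in miRcontrol, 57.5 and 58.4 in miR92b_inhibitor, 79.6 and 89.0 in miR3124_mimic, 83.3 and 83.9 in the mixture and 52.2 and 61.2 in miR200b_mimic. The libraries of miR3124_mimic and the mixture stood above those of the other 3 groups, and neighbouring groups within each of these 2 sets overlapped. The rise was 0.68 ± 0.06 on the log2 scale in miR3124_mimic (1.61-fold, adjusted p = 3.226e-13) and 0.67 ± 0.06 in the mixture (1.59-fold, adjusted p = 7.729e-13). The difference was 0.12 ± 0.07 in miR200b_mimic (adjusted p = 0.1637) and 0.14 ± 0.06 in miR92b_inhibitor (adjusted p = 0.09075). The former was 0.22 (adjusted p = 0.01535) without miR200b_mimic library 1 and -0.013 without miR200b_mimic library 2.

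AGO4, the Argonaute with the lowest count, rose the most in miR3124_mimic and fell with the inhibitor. Its values were 25.3 and 22.9 in miRcontrol, 17.2 and 17.6 in miR92b_inhibitor, 56.8 and 56.3 in miR3124_mimic, 26.5 and 24.6 in the mixture and 25.6 and 24.4 in miR200b_mimic. The 2 libraries of miR3124_mimic were far above all others, those of miR92b_inhibitor were below all others, and the remaining 3 groups overlapped. Against miRcontrol, AGO4 was 2.35-fold higher in miR3124_mimic (log2 fold change 1.23 ± 0.07, adjusted p = 3.658e-19, with 1.16 to 1.31 over the alternatives). It was lower in miR92b_inhibitor (-0.47 ± 0.09, adjusted p = 2.527e-05, with -0.54 to -0.40 over the alternatives). The values of 0.05 ± 0.08 in miR200b_mimic (adjusted p = 0.6891) and 0.08 ± 0.08 in the mixture (adjusted p = 0.4431) missed the threshold.

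AGO4 (chr1:35808172-35857890), AGO1 (chr1:35869808-35930528) and AGO3 (chr1:35930718-36072500) are neighbours on the plus strand in this order, whereas AGO2 is on chromosome 8. In miR3124_mimic all 3 neighbours were called higher (log2 fold change 1.23 for AGO4, 0.41 for AGO1 and 0.68 for AGO3). They did not move as one in the other treated groups. In miR200b_mimic, AGO1 was called higher, and AGO3 and AGO4 were not called. In miR92b_inhibitor, AGO4 and AGO1 were called lower and AGO3 was not called. In the mixture, AGO3 and AGO1 were called higher and AGO4 was not called.

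Levels of different genes were compared per length, as normalized CPM per kb of the longest coding transcript. In miRcontrol these were 14.7 ± 0.44 (SD, n = 2) for AGO2, 7.63 ± 0.07 for AGO1, 3.38 ± 0.24 for AGO4 and 2.67 ± 0.13 for AGO3. AGO2 thus made up 51.9% and 51.6% of the summed Argonaute level per kb in the 2 libraries of miRcontrol. Its share was 43.6% and 43.7% in miR3124_mimic. The shares were 58.6% and 57.1% in miR200b_mimic, 54.7% and 54.8% in the mixture, and 56.4% and 57.9% in miR92b_inhibitor. The share of AGO4 was 12.3% and 11.5% in miRcontrol, 20.0% in both libraries of miR3124_mimic, and 8.81% and 8.84% in miR92b_inhibitor. The make-up of the Argonaute mRNA therefore shifted away from AGO2 in miR3124_mimic and towards it in the other 3 groups. These shares depend on the transcript lengths used and are descriptions without a test. Among the other members in miRcontrol, XPO5 had 27.7 normalized CPM per kb, DROSHA 19.3, TNRC6A 18.0, DGCR8 15.3, DICER1 13.0 and TNRC6B 4.51. With the length of all exons of a gene in place of 1 transcript, DROSHA (13.2), TNRC6A (11.8) and DGCR8 (9.42) fell below AGO2 (13.5). DGCR8 also fell below DICER1 (10.9), so these ranks between genes are not firm.

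**Figure D3:**
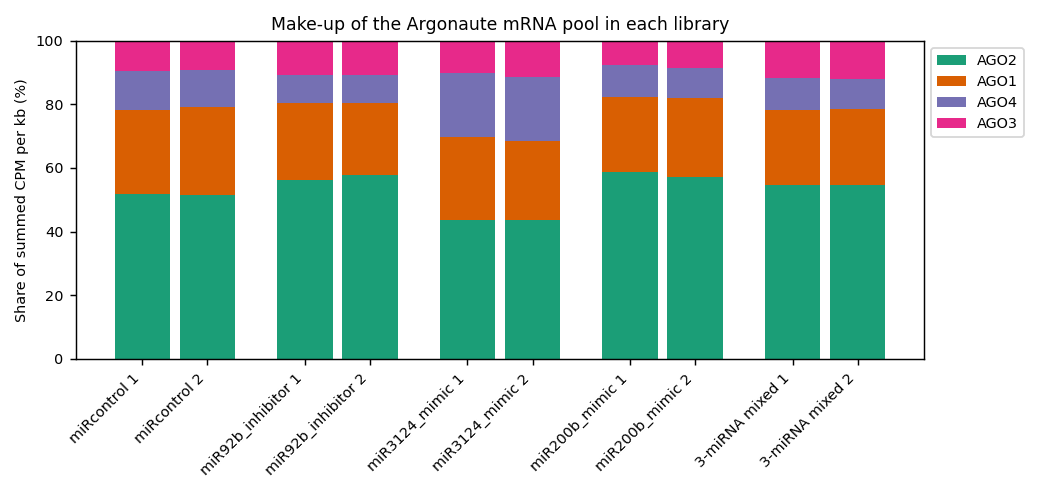
Share (%) of each Argonaute in the summed normalized CPM per kb of AGO1 to AGO4, 1 bar per library. AGO2 is the largest part in every library, from 43.6% in miR3124_mimic library 1 to 58.6% in miR200b_mimic library 1, and AGO4 reaches 20.0% in miR3124_mimic.

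TNRC6A and TNRC6B encode GW182 proteins, the scaffolds that Argonautes bind to silence a target. TNRC6A changed in opposite directions with the 2 mimics. It had 153 and 151 normalized CPM in miRcontrol, 153 and 154 in miR92b_inhibitor, 315 and 338 in miR3124_mimic, 159 and 153 in the mixture and 91.5 and 83.9 in miR200b_mimic. The miR3124_mimic libraries were above and the miR200b_mimic libraries below all the others. The inhibitor overlapped both miRcontrol and the mixture, while the mixture (159 and 153.4) lay just above miRcontrol (153.0 and 151). The rise in miR3124_mimic was 2.15-fold (log2 fold change 1.10 ± 0.04, adjusted p = 1.398e-26) and the fall in miR200b_mimic 1.74-fold (-0.80 ± 0.05, adjusted p = 7.213e-19). Of all genes tested, 5.29% were at least as high in the first comparison and 5.75% at least as low in the second. The values were 1.05 to 1.15 and -0.86 to -0.73 over the alternatives. In the mixture and in miR92b_inhibitor the log2 fold change was 0.04 ± 0.04 (adjusted p = 0.5294) and 0.01 ± 0.04 (adjusted p = 0.86).

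TNRC6B rose with miR-3124-5p as TNRC6A did, but was not lower in miR200b_mimic. Its level was 84.7 and 80.3 in miRcontrol, 76.1 and 69.6 in miR92b_inhibitor, 167 and 168 in miR3124_mimic, 111 and 118 in the mixture and 88.4 and 91.8 in miR200b_mimic. No 2 groups overlapped. The log2 fold change was 1.02 ± 0.05 in miR3124_mimic (2.03-fold, adjusted p = 4.204e-23) and 0.47 ± 0.05 in the mixture (1.39-fold, adjusted p = 4.363e-11). A fall of -0.18 ± 0.05 in miR92b_inhibitor (adjusted p = 0.005472) was lost without miRcontrol library 1 (adjusted p = 0.1007) or miR92b_inhibitor library 2 (0.1916). The 0.13 ± 0.05 of miR200b_mimic (adjusted p = 0.04318) missed the threshold in several alternatives, among them library totals (0.0596), DESeq2 (0.1179) and leaving out miRcontrol library 2 (0.2902) or miR200b_mimic library 2 (0.2581). The third GW182 gene, TNRC6C, was at 14 to 42 counts per library. It had 18 and 20 counts in miRcontrol and 42 and 30 in miR3124_mimic (log2 fold change 1.01 ± 0.36, adjusted p = 0.01508), a call lost without miR3124_mimic library 1 (0.61, adjusted p = 0.2816) or miRcontrol library 1 (0.91, adjusted p = 0.0943) and with DESeq2 (0.08065).

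The seed words were then looked for in the members, in the longest coding transcript of each gene in GENCODE v29. CCCGCGA, the word for miR-3124-5p, was in the 3′UTR of 0 of 10 members and of 0.621% of the 12237 tested genes with a 3′UTR. CAGTATT, the word for miR-200b-3p, was in the 3′UTR of 3 of 10 members, AGO1 (2 sites), AGO2 (2) and AGO3 (1), and in 19.5% of all these genes, or 29.2% of the 7476 with a 3′UTR at least as long as the shortest of the members. These 3 genes were not lower in miR200b_mimic, as AGO1 and AGO2 were called higher and AGO3 was not called. Of the 2 members called lower in miR200b_mimic, DGCR8 had no CAGTATT anywhere in the transcript, and TNRC6A had none in its 3′UTR of 2420 bases but 2 in its coding sequence. At least 1 was found upstream of the 3′UTR in 11.1% of the 12237 genes and at least 2 in 1.64%, and among the 392 genes with as long a stretch there as TNRC6A (6018 bases) or longer in 42.6% and 16.6%. The 2 sites are shown with 10 bases on each side and the word in capitals, on the plus strand of chr16:24789754-24789760 and chr16:24809387-24809393.
TNRC6A coding base 1112: ggtgcctggcCAGTATTagagaacaat
TNRC6A coding base 4578: tggatatgaaCAGTATTaaagagccac
Coding bases are counted from the start codon, in a coding sequence of 5886 bases. A match of letters describes the sequence and does not show that the microRNA binds there.

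The same word was in the coding sequence of AGO1, AGO2 and AGO3, at coding bases 922, 928 and 931, and not in that of AGO4. The AGO1 and AGO3 sites, at chr1:35895171-35895177 and chr1:36008946-36008952, and the 3′UTR sites of both genes, at chr1:35924466-35924472, chr1:35925277-35925283 and chr1:36072049-36072055, are given in this order to show how far the flanks differ.
AGO1 coding base 922: cacagtggcaCAGTATTtcaagcagaa
AGO3 coding base 931: aacagtagcgCAGTATTtcagagaaaa
AGO1 3′UTR site 1: actgtgccagCAGTATTgtggggaggg
AGO1 3′UTR site 2: cgttattctcCAGTATTtcttgaaaat
AGO3 3′UTR site: tccttgttttCAGTATTtaaaatttgg
For miR-92b, the 3p word GTGCAAT was in the 3′UTR of AGO3 and AGO4 (13.0% of all genes, or 19.8% of the 7476 with long 3′UTRs) and the 5p word CCGTCCC in that of AGO2 (4.14%, or 5.55%). Upstream of the 3′UTR, AGO4 and TNRC6A each had 1 CCGTCCC (1283 of the 12237 genes had at least 1) and DROSHA 1 GTGCAAT (845 genes). AGO4, with 1 GTGCAAT, was called lower in miR92b_inhibitor, AGO3, also with 1, was not called, and AGO2 was 0.11 higher on the log2 scale. The sites of AGO3 (chr1:36057524-36057530) and AGO4 (chr1:35856163-35856169) read as follows.
AGO3 3′UTR site for miR-92b-3p: ctatcttttaGTGCAATaagcagtttt
AGO4 3′UTR site for miR-92b-3p: accattaaagGTGCAATgctgtcattt
The other members, DICER1, DROSHA, DGCR8, TNRC6A, TNRC6B and XPO5, had none of the 4 full words in the 3′UTR. Without the first letter, AGTATT was in the 3′UTR of DICER1 (1), DROSHA (2) and TNRC6B (2). The shorter TGCAAT was in that of DICER1 (3) and TNRC6B (4), and DGCR8, TNRC6A and XPO5 had neither. Of the tested genes with a 3′UTR, 41.2% had AGTATT and 34.1% TGCAAT there.

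The 3 groups that received a mimic were compared as one with the 2 that did not, miRcontrol and miR92b_inhibitor. The miRcontrol cells had received a scrambled miRNA, and the mixture holds both mimics, so this is not a contrast of load against none. All 10 members were called, 8 higher and DROSHA and DGCR8 lower, where 52.3% of all genes were called. Since this contrast averages groups that differ, the overlap of libraries was also counted. For 4 of 10 members, DICER1, TNRC6B, AGO1 and AGO2, all 6 libraries with a mimic were above all 4 without, which was so for 7.46% of all genes, and no member lay wholly below (6.13% of genes). DICER1 had 229 to 318 normalized CPM with a mimic and 133 to 161 without (log2 fold change 0.85 ± 0.03, 1.80-fold, adjusted p = 2.968e-30), a value that 4.16% of all genes reached. The log2 fold change was 0.63 ± 0.03 for TNRC6B (adjusted p = 1.269e-21), 0.37 ± 0.03 for AGO1 (adjusted p = 3.759e-14) and 0.34 ± 0.03 for AGO2 (adjusted p = 6.038e-16). The inhibitor group enters these values. Against miRcontrol it was lower for AGO1 (-0.24) and TNRC6B (-0.18) and higher for DICER1 (0.24) and AGO2 (0.11). For AGO4 (0.69 ± 0.05) and TNRC6A (0.11 ± 0.03), miR3124_mimic was the only one of the 3 mimic groups called higher than miRcontrol.

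The mixture was compared with each mimic alone, and the mimics with each other, in comparisons added after the values against miRcontrol had been seen. Against miR3124_mimic, 8 members were called in the mixture, where 49.1% of all genes were called, but 5 without miR3124_mimic library 2 or mixture library 2. Of the 8, 4 were higher (25.3% of all genes) and 4 lower (23.8%). Among the 4 higher, the calls of DGCR8 and XPO5 were lost with DESeq2 with every library kept (adjusted p = 0.08703 and 0.07133). Against miR200b_mimic 7 were called (38.6% of all genes), 5 higher (18.2%) and 2 lower (20.4%). Between the single mimics 8 differed (57.8%), with 5 higher in miR3124_mimic (27.9%) and 3 lower (29.9%). TNRC6A separated the mimics most, with 3.74-fold more in miR3124_mimic than in miR200b_mimic (log2 difference 1.90 ± 0.05, adjusted p = 1.071e-34). In the mixture it was 1.06 lower on the log2 scale than in miR3124_mimic (log2 difference -1.06 ± 0.04, adjusted p = 8.392e-26) and 0.84 ± 0.05 higher than in miR200b_mimic (adjusted p = 2.616e-19).

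The members fell into different patterns in the mixture. AGO4 was 2.21-fold lower there than in miR3124_mimic (log2 difference -1.15 ± 0.07, adjusted p = 3.598e-18) and did not pass the threshold against miR200b_mimic (0.03 ± 0.08, adjusted p = 0.784). AGO3 was the reverse, with -0.02 ± 0.06 against miR3124_mimic (adjusted p = 0.8471) and 0.55 ± 0.06 against miR200b_mimic (adjusted p = 3.431e-10). TNRC6B lay between the single mimics (-0.55 ± 0.05 and 0.34 ± 0.05, adjusted p = 3.781e-14 and 1.949e-07). DICER1 was lower than in miR200b_mimic (-0.34 ± 0.04, adjusted p = 4.193e-10) and slightly higher than in miR3124_mimic (0.12 ± 0.04, adjusted p = 0.006977), the latter lost without miR3124_mimic library 2 (adjusted p = 0.05127) or mixture library 2 (0.1245). The methods give 1 final concentration for the agents without saying whether it holds for each agent in the mixture, so a lower dose and an effect of the agents on each other cannot be told apart.

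The wider pathway was described by a list of 81 other genes with roles from nuclear cleavage to mRNA decay, of which 78 were tested. In miR3124_mimic 47 were called, 13 higher and 34 lower. In miR200b_mimic 44 were called (20 higher, 24 lower), in miR92b_inhibitor 37 (14 and 23), in the mixture 49 (18 and 31) and in the groups with a mimic against those without 52 (18 and 34). The count in miR92b_inhibitor was 21 and 27 without miRcontrol library 1 or 2, and 29 and 24 without miR92b_inhibitor library 1 or 2. The median log2 fold change of the 78 was -0.06, -0.04, -0.02, -0.08 and -0.06 in these comparisons, and that of the 10 members was 0.55, 0.12, 0.05, 0.22 and 0.35. Over all genes the share called higher was 25.7%, 21.4%, 17.5%, 21.5% and 25.5%, and the share called lower 25.3%, 19.1%, 18.2%, 21.1% and 26.8%.

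Cofactors of the nuclear DROSHA and DGCR8 complex were called mostly lower in the groups with a mimic, by small amounts. The counts were 0 of 12 higher and 8 lower in miR3124_mimic and again 0 and 8 in miR200b_mimic. Of all genes, 25.3% and 19.1% were called lower in these 2 groups. The counts higher and lower were 1 and 8 in the mixture, and 2 and 4 in miR92b_inhibitor, where 21.1% and 18.2% of all genes were called lower. The median log2 fold change of the 12 was -0.13 in miR3124_mimic, -0.11 in miR200b_mimic, -0.13 in the mixture and -0.02 in miR92b_inhibitor. TARBP2, the double-stranded RNA-binding partner of DICER1, had log2 fold changes of 0.44 ± 0.08 in miR3124_mimic (adjusted p = 7.819e-06), 0.21 ± 0.08 in miR200b_mimic (0.04002), 0.22 ± 0.08 in miR92b_inhibitor (0.02782) and 0.42 ± 0.08 in the mixture (2.086e-05). The call of miR200b_mimic was lost with DESeq2 (adjusted p = 0.1389). In edgeR it was lost with library totals (0.05163), no filter on low counts (0.08389) and the fit of only the 2 groups compared (0.05492). It was also lost without miRcontrol library 2 (log2 fold change 0.16) or either miR200b_mimic library (0.23 and 0.18). That of miR92b_inhibitor was lost with DESeq2 (adjusted p = 0.1069) and, in edgeR, with no filter on low counts (0.06098). It was also lost without miRcontrol library 2 (log2 fold change 0.17) or miR92b_inhibitor library 1 (0.18). PRKRA, the other such partner, was called in miR92b_inhibitor (0.30 ± 0.08, adjusted p = 0.002856), except without miRcontrol library 1 (0.20, adjusted p = 0.128). SND1, a nuclease that acts on microRNAs, was lower there (-0.48 ± 0.04, adjusted p = 4.483e-14).

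Heat shock protein 90 and its helpers open Argonautes so that a duplex can be loaded. The 2 cytosolic HSP90 genes were called lower in every group with a mimic and were lowest in miR200b_mimic. HSP90AA1 had 2921 and 2989 normalized CPM in the libraries of miRcontrol and 1514 and 1703 in those of miR200b_mimic (log2 fold change -0.88 ± 0.04, adjusted p = 1.065e-24), and the mixture (-0.64 ± 0.04, adjusted p = 1.091e-19) and miR3124_mimic (-0.56 ± 0.04, adjusted p = 9.754e-18) were also lower. HSP90AB1 was at 2131 and 2144 against 1131 and 1236 in miR200b_mimic (-0.85 ± 0.03, adjusted p = 3.033e-25), with smaller falls in the mixture (-0.30 ± 0.03, adjusted p = 4.562e-10) and miR3124_mimic (-0.13 ± 0.03, adjusted p = 0.0009445). FKBP4, a co-chaperone, was higher in miR200b_mimic (0.49 ± 0.04, adjusted p = 5.92e-14). Of the 11 chaperone genes tested, 6 were called higher and 3 lower in that group, and 1 higher and 8 lower in miR3124_mimic. Of all genes, 21.4% were called higher and 19.1% lower in miR200b_mimic, and 25.7% and 25.3% in miR3124_mimic.

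Downstream of the Argonautes, DCP2, the enzyme that removes the mRNA cap, changed most of the named genes in miR3124_mimic and the mixture. It had 78.7 and 80.2 normalized CPM in miRcontrol, 70.7 and 74.3 in miR92b_inhibitor, 278 and 279 in miR3124_mimic, 159 and 163 in the mixture and 125 and 127 in miR200b_mimic. The log2 fold change was 1.81 ± 0.04 in miR3124_mimic (3.50-fold, adjusted p = 1.787e-34), 0.66 ± 0.05 in miR200b_mimic (adjusted p = 1.831e-16) and 1.02 ± 0.04 in the mixture (adjusted p = 6.481e-24). DCP1A, its activator, was higher in all 4 treated groups, with 0.69 ± 0.05 in the mixture (adjusted p = 6.338e-15), 0.39 ± 0.06 in miR200b_mimic (1.231e-07), 0.36 ± 0.06 in miR92b_inhibitor (7.953e-07) and 0.31 ± 0.06 in miR3124_mimic (8.715e-06). Not all genes of silencing rose. MOV10, an RNA helicase found with Argonautes, was lower in miR3124_mimic (-0.91 ± 0.06, adjusted p = 4.703e-17) and in the mixture (-0.53 ± 0.06, adjusted p = 3.047e-10), as were RANGAP1 (-0.71 ± 0.04, adjusted p = 8.914e-21), which acts in nuclear transport, and DIS3L2 (-0.70 ± 0.09, adjusted p = 1.303e-08), an exonuclease for uridylated RNA, in miR3124_mimic. CNOT7, a deadenylase of the CCR4-NOT complex, was lower with a mimic than without (-0.46 ± 0.03, adjusted p = 9.548e-18).

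The BTG and TOB proteins, which bind this complex, differed among themselves. BTG2 was higher in miR3124_mimic (0.55 ± 0.12, adjusted p = 0.0001891), miR200b_mimic (0.67 ± 0.12, adjusted p = 1.492e-05) and the mixture (0.46 ± 0.12, adjusted p = 0.001854). In miR92b_inhibitor, BTG1 was higher (0.50 ± 0.07, adjusted p = 3.268e-08) and TOB2 lower (-0.32 ± 0.06, adjusted p = 9.175e-06). CNOT3, another subunit of CCR4-NOT, was on 10 rows that were summed to about the level of a weakly expressed gene (5.78 and 6.03 normalized CPM in miRcontrol). It was called lower in miR200b_mimic (-0.68 ± 0.19, adjusted p = 0.003923), a call lost without miR200b_mimic library 2 (-0.49, adjusted p = 0.108), and its lower values in miR92b_inhibitor and the mixture (-0.54 and -0.52, adjusted p = 0.01984 and 0.01921) missed the threshold with DESeq2 (0.1043 and 0.1068) and without either miRcontrol library (0.05751 and 0.09762, 0.05475 and 0.09163). They also missed it without either miR92b_inhibitor library (0.06192 and 0.1013) and without mixture library 2 (0.1081).

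**Figure D4:**
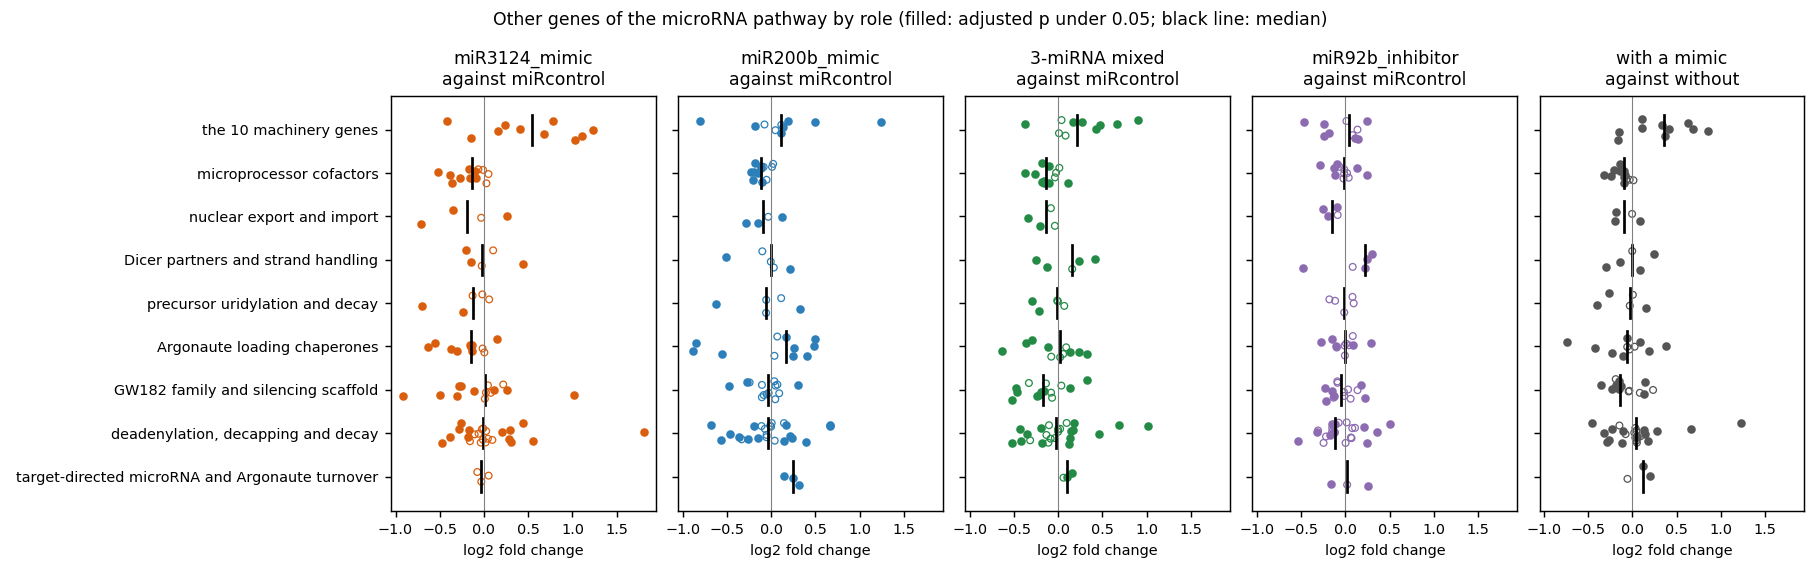
Log2 fold change (horizontal axes) of the 10 members and of 78 other microRNA pathway genes grouped by role, 1 panel per comparison, with filled points for an adjusted p under 0.05 and black lines for medians. The median of the members is 0.55 in miR3124_mimic and 0.35 with a mimic against without, and DCP2, in the row of decay genes, is the rightmost point in miR3124_mimic at 1.81.

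For 9 of the members the tested gene with the most similar pattern was found among 10418 others of at least 5 mean CPM, by Pearson's r of log2 CPM over the 10 libraries. The 10 points share 5 groups of 2 libraries and the genes were picked as the highest of many, so the values are a description. The closest gene was HELZ for AGO1 (r = 0.987), PMEPA1 for AGO2 (0.988), ZNF460 for AGO3 (0.978) and MYL12A for AGO4 (0.995). It was CD200 for DICER1 (0.994), TOMM70 for DGCR8 (0.958) and NRAS for XPO5 (0.971). TNRC6A was closest to CCL2 (0.996) and TNRC6B to NNMT (0.992). In these 9 cases the closest gene was not another member.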

How the data were processed

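Poly(A)-selected mRNA of 10 BEAS2B libraries, 2 for each of 5 transfections, was sequenced. FastQC, FASTX_Trimmer and BBMap served the authors for quality control and trimming, and TopHat for mapping to GRCh38 (the build per the labels). The deposited values are raw counts per gene, without the FPKM or geometric normalization named in the methods. The counting tool, annotation and strand setting are not given in the sources used here. Each table had 58173 rows. The 5771 rows that repeat a symbol were summed, leaving 52402 symbols.

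R 4.3.3 with edgeR 4.0.16 (limma 3.58.1) was used for the counts. Genes were filtered by filterByExpr and scaled by RLE factors of 0.985 to 1.016, and a single quasi-likelihood fit held all 10 libraries, with no covariate. The spread within a group thus rests on 2 libraries, pooled over 5 groups. A chi-square comparison of the libraries within a group gave 1.75 to 2.63 per degree of freedom, so each pair differed by more than counting noise. The excess was small, as the common dispersion of the fit, its measure of spread beyond counting noise, was 0.00075. With so small a spread, small folds reach very low adjusted p-values. Whether the spread reflects separate transfections was not tested. The procedure was tested on simulated data in which a small part of the genes was changed, by larger folds than many calls reported here. The simulation therefore does not cover small folds or broad shifts. Seed words were searched in GENCODE v29 transcripts (GRCh38). Sequences on chromosome 8 were not printed.

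All 10 members are named. Of the pathway list, at most 3 risers and 3 fallers per comparison are named, among genes with an adjusted p under 0.05, a mean of at least 1 CPM and libraries wholly on one side, with TARBP2 and TNRC6C in any case. The members and lists were chosen with earlier results of these data known. The comparisons among transfected groups were added after seeing the values. Alternatives were TMM, library totals, DESeq2 1.42.0, other filters, a fit of only the 2 groups compared, a replicate block, a fold limit of 2 and leaving out each library. The gene closest in pattern to DROSHA is not reported here.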

Additional observations from a re-analysis of the deposited data

How the results depend on the processing

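Of 930 log2 fold changes of the members under alternative settings, 877 kept their direction and their side of the threshold, 40 lost and 1 gained a call, and 12 changed sign, all of the last in comparisons that were not called. The limit of a 2-fold change and an unadjusted p below 0.05 was also used in place of the adjusted p. The members past it numbered 3 (miR3124_mimic), 1 (miR200b_mimic), 0 (miR92b_inhibitor) and 0 (mixture). In the other comparisons they numbered 0 (with a mimic against without), 2 (mixture against miR3124_mimic), 0 (mixture against miR200b_mimic) and 2 (miR3124_mimic against miR200b_mimic). The pathway genes past it numbered 2, 0, 0, 1, 1, 1, 0 and 3 in this order. The share of all genes past this limit was worked out only for the comparisons with miRcontrol. Counts in the other comparisons therefore have no such share to be read against. Leaving out each library in turn gave, in the same order, 8 to 9, 4 to 7, 4 to 7, 7 to 7, 10 to 10, 5 to 7, 6 to 7 and 8 to 8 members called, and 39 to 41, 36 to 38, 21 to 29, 34 to 40, 45 to 51, 38 to 43, 36 to 38 and 50 to 53 pathway genes. In values that changed sign, leaving out 1 library at a time gave log2 fold changes of -0.013 to 0.22 (AGO3) and -0.021 to 0.13 (AGO4) in miR200b_mimic, -0.031 to 0.046 (DGCR8) in the mixture, -0.088 to 0.072 (AGO3) and -0.010 to 0.099 (DROSHA) in the mixture against miR3124_mimic, -0.089 to 0.047 (AGO1) and -0.019 to 0.085 (AGO4) in the mixture against miR200b_mimic, and -0.037 to 0.10 (XPO5) in miR3124_mimic against miR200b_mimic. AGO3 was 0.0012 with TMM in the mixture against miR3124_mimic, and AGO1 0.0019 with library totals in the mixture against miR200b_mimic. Of 469 values of named pathway genes 440 kept direction and side, 25 lost the call and 4 changed sign, all of them TNRC6C (-0.46 to 0.28 in miR200b_mimic, -0.044 to 0.17 in miR92b_inhibitor and -0.33 to 0.025 in the mixture, each without 1 library). Libraries with the same replicate number did not deviate together (correlations from -0.0625 to 0.0613 over 10419 genes). With the replicate block 10, 7, 7, 7 and 10 members and 47, 44, 39, 49 and 51 pathway genes were called in the 4 comparisons with miRcontrol and in that of groups with and without a mimic, and 0 of 80 member calls changed. The fit of only the 2 groups compared could not be made for the groups with a mimic against those without. TNRC6C, at 14 to 42 counts per library, was the named gene most limited by depth. The cause of these shifts was not tested.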
